A study of Sus scrofa with 3 samples.

Results

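Albumin (ALB), transferrin (TF), hemopexin (HPX) and retinol binding protein 4 (RBP4) are plasma carrier proteins that hepatocytes make and secrete. The 4 genes were chosen by name, each matched to its Ensembl gene ID, out of 25322 gene IDs in all. The livers of 3 male pigs, all 90 days after birth, gave 1 RNA-seq library each: 1 from an Enshi black pig (a Chinese local breed), 1 from a Chinese wild boar and 1 from a Large White pig (a European commercial breed). The labels name no treatment and no pooling, and the series is described as one on the liver transcriptome, so the comparison available is between breeds. With 1 library per breed, breed, animal and library cannot be told apart, and the differences below come without replicates and without p-values.

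Albumin is the main protein of plasma and carries fatty acids, bilirubin, hormones and drugs. Transferrin carries iron to cells that bear transferrin receptors. Hemopexin binds free haem and hands it to the liver. RBP4 carries retinol out of the liver, in a complex with transthyretin. In mammals albumin, transferrin and RBP4 are described as proteins whose plasma levels fall in inflammation, and hemopexin as one whose level rises.

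Values are CPM, the count of a gene per 1000000 counts assigned to genes in that library, and thus its share of all counts. The libraries held 20654571 gene counts in Enshi black, 20215871 in Chinese wild boar and 19982627 in Large White. A floor of 3 counts was worth 0.145 CPM in Enshi black, 0.148 in Chinese wild boar and 0.150 in Large White. Intervals in parentheses are 95% exact binomial intervals. They cover counting error only and say nothing of how animals of a breed vary. The size rule used here asks that the whole interval of a fold lie at or above 2, or at or below 0.5.

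The carriers differed from each other in how they varied. ALB had more than 2-fold higher shares in the Enshi black and Chinese wild boar libraries than in the Large White library. RBP4 had the same 2 libraries above Large White by smaller folds. TF was highest in Enshi black and lowest in Chinese wild boar, and HPX varied by at most 1.05-fold over the 3 libraries with this scaling.

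ALB had 1435338 counts in Enshi black, 1061478 in Chinese wild boar and 494557 in Large White. These were 69492 CPM (69383 to 69602) in Enshi black, 52507 CPM (52410 to 52604) in Chinese wild boar and 24749 CPM (24681 to 24818) in Large White. The order was Enshi black, Chinese wild boar, Large White, with no overlap of the counting intervals. Albumin thus took 6.95% of all gene counts in Enshi black, 5.25% in Chinese wild boar and 2.47% in Large White. By count it ranked 1 among all gene IDs in the Enshi black and Chinese wild boar libraries and 4 in Large White.

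TF had 509231 counts in Enshi black, 358866 in Chinese wild boar and 410696 in Large White. The levels were 24655 CPM (24588 to 24722) in Enshi black, 17752 CPM (17694 to 17809) in Chinese wild boar and 20553 CPM (20490 to 20615) in Large White. Enshi black was highest and Chinese wild boar lowest, with Large White between them, an order that differs from that of ALB. Transferrin took 2.47% of gene counts in Enshi black, 1.78% in Chinese wild boar and 2.06% in Large White, and ranked 3 in Enshi black, 6 in Chinese wild boar and 5 in Large White by count. In Large White, TF came directly after ALB.

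HPX had 137869 counts in Enshi black, 141749 in Chinese wild boar and 139645 in Large White. Its levels were 6675 CPM (6640 to 6710) in Enshi black, 7012 CPM (6975 to 7048) in Chinese wild boar and 6988 CPM (6952 to 7025) in Large White. The intervals of Chinese wild boar and Large White overlapped, so their order was not detectable at this depth, and Enshi black lay slightly below both. Hemopexin took 0.667% of gene counts in Enshi black, 0.701% in Chinese wild boar and 0.699% in Large White, and ranked 16 in Enshi black, 11 in Chinese wild boar and 16 in Large White. Its neighbours by count were the protease inhibitor A2M and the mitochondrial ATP6 in Enshi black, the mitochondrial COX3 and ATP6 in Chinese wild boar, and clusterin (CLU) below it in Large White.

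RBP4 had 74227 counts in Enshi black, 81688 in Chinese wild boar and 54205 in Large White. The levels were 3594 CPM (3568 to 3620) in Enshi black, 4041 CPM (4013 to 4069) in Chinese wild boar and 2713 CPM (2690 to 2736) in Large White. Chinese wild boar was highest and Large White lowest, without overlap of the intervals. RBP4 took 0.359% of gene counts in Enshi black, 0.404% in Chinese wild boar and 0.271% in Large White, and ranked 32 in Enshi black, 24 in Chinese wild boar and 39 in Large White. Its neighbours by count were CYP2E1 and ITIH3 in Enshi black, A2M and FTL in Chinese wild boar, and FGB below it in Large White. Ranks here are by read counts, which grow with transcript length, and are not an order of transcript numbers.

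**Figure D1:**
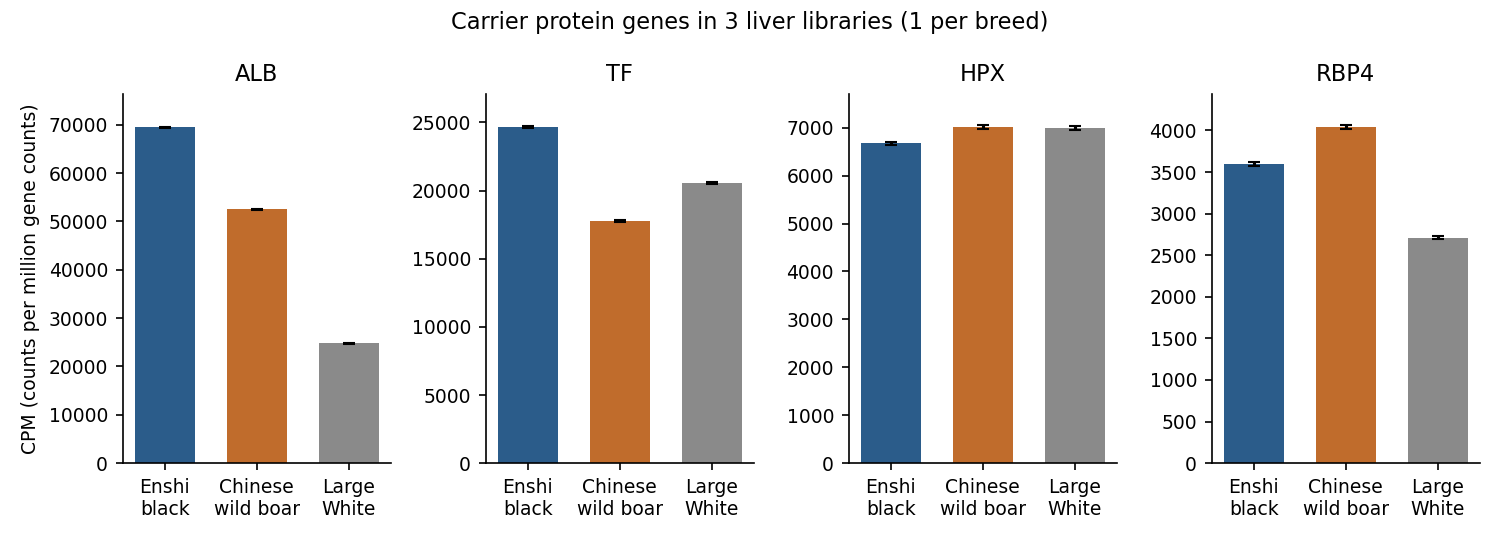
CPM (counts per 1000000 gene counts, vertical axes starting at 0) of ALB, TF, HPX and RBP4 in the Enshi black, Chinese wild boar and Large White liver libraries, 1 library per bar. Error bars are 95% exact binomial intervals for counting error only. ALB is 69492 CPM in Enshi black, 52507 in Chinese wild boar and 24749 in Large White, while HPX stays between 6675 and 7012 CPM.

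Together the 4 genes took 10.4% of all gene counts in Enshi black, 8.13% in Chinese wild boar and 5.50% in Large White. Without ALB, the other carriers took 3.49% in Enshi black, 2.88% in Chinese wild boar and 3.03% in Large White. ALB made up 66.6% of the carriers' counts in Enshi black, 64.6% in Chinese wild boar and 45.0% in Large White.

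For Enshi black against Large White, 1 of the 4 carriers passed the size rule as higher and none as lower. Of the 13228 gene IDs that reached 1 CPM in any library, called expressed here, 5.84% passed as higher and 7.39% as lower. ALB was the carrier that passed, at 2.81-fold (2.80 to 2.82). RBP4 had a fold of 1.32 (1.31 to 1.34), TF of 1.20 (1.19 to 1.20) and HPX of 0.955 (0.948 to 0.962). The median log2 fold over all expressed gene IDs was 0.10 in this comparison, so the HPX fold lay under that median and the TF fold, 0.26 on the log2 scale, a little above it.

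For Chinese wild boar against Large White, again 1 of the 4 carriers passed as higher and none as lower, where 2.96% and 3.73% of expressed gene IDs did. ALB was 2.12-fold higher (2.11 to 2.13), close to the rule's limit of 2. RBP4 had a fold of 1.49 (1.47 to 1.51), HPX of 1.003 (0.996 to 1.01) and TF of 0.864 (0.860 to 0.868). It shares the Large White library with the comparison before, so both higher ALB folds rest on the same Large White value.

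For Enshi black against Chinese wild boar, none of the 4 carriers passed in either direction, where 4.88% of expressed gene IDs passed as higher and 6.43% as lower. TF had a fold of 1.39 (1.38 to 1.39), ALB of 1.32 (1.32 to 1.33), HPX of 0.952 (0.945 to 0.959) and RBP4 of 0.889 (0.881 to 0.898). The intervals are narrow because the counts are large. They give the precision for these 2 libraries and cannot show whether the breeds differ.

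The folds moved little with the scaling. Scalings were the library total, the TMM factors of edgeR and the size factors of DESeq2. To these were added a total without the 10 most abundant gene IDs and a total that adds unassigned reads (no feature or ambiguous). Over these 5 scalings, ALB was 2.62-fold to 2.93-fold above Large White in Enshi black. For Chinese wild boar against Large White it was 2.05-fold to 2.20-fold higher, and in all 5 scalings it passed in both comparisons. RBP4 ranged over 1.24 to 1.38 and 1.44 to 1.54 in these comparisons. TF ranged over 1.12 to 1.25 for Enshi black and 0.836 to 0.895 for Chinese wild boar against Large White. HPX had folds of 0.892 to 0.996 for Enshi black and 0.972 to 1.04 for Chinese wild boar against Large White. The direction of the second flipped with the total without the 10 most abundant gene IDs. A spread between animals was not measured. With a coefficient of variation of 0.2 assumed for it, ALB no longer passed: the interval of ALB in Enshi black against Large White was 1.62 to 4.86, and in Chinese wild boar against Large White 1.23 to 3.67.

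**Figure D2:**
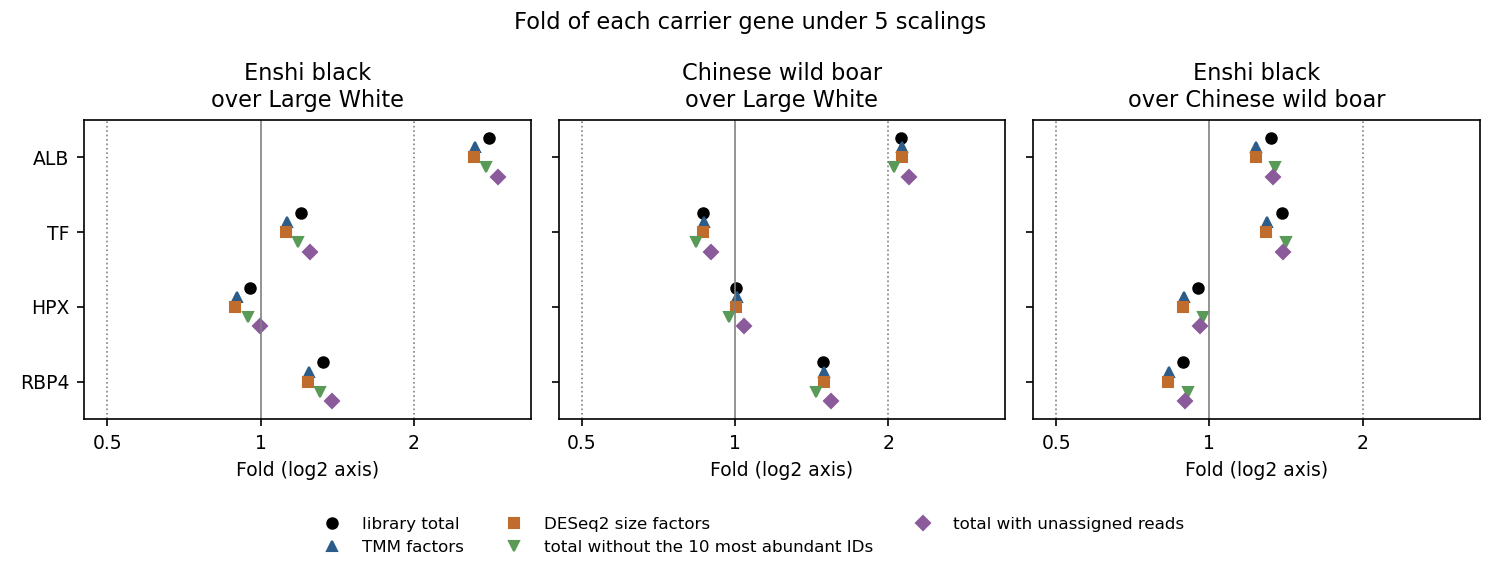
Fold of ALB, TF, HPX and RBP4 (log2 axis) between the Enshi black, Chinese wild boar and Large White libraries, with 1 symbol per scaling. The solid line marks a fold of 1 and the dotted lines folds of 0.5 and 2. ALB lies past 2 in both comparisons with Large White under all 5 scalings, and no other carrier reaches 2.

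Ratios of 2 genes within a library need no scaling between libraries. The ratio of ALB to TF counts was 2.82 (2.81 to 2.83) in Enshi black, 2.96 (2.95 to 2.97) in Chinese wild boar and 1.20 (1.20 to 1.21) in Large White. That of ALB to HPX was 10.4 (10.4 to 10.5) in Enshi black, 7.49 (7.45 to 7.53) in Chinese wild boar and 3.54 (3.52 to 3.56) in Large White. ALB to RBP4 was 19.3 (19.2 to 19.5) in Enshi black, 13.0 (12.9 to 13.1) in Chinese wild boar and 9.12 (9.04 to 9.21) in Large White. ALB was thus lowest in Large White relative to each of the other carriers. The ratio to TF was close in Enshi black and Chinese wild boar, while those to HPX and RBP4 were higher in Enshi black.

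The carriers other than ALB also differed relative to each other. TF to HPX was 3.69 (3.67 to 3.72) in Enshi black, 2.53 (2.52 to 2.55) in Chinese wild boar and 2.94 (2.92 to 2.96) in Large White. TF to RBP4 was 6.86 (6.81 to 6.91) in Enshi black, 4.39 (4.36 to 4.43) in Chinese wild boar and 7.58 (7.51 to 7.65) in Large White, so Chinese wild boar had the fewest TF counts per RBP4 count. HPX to RBP4 was 1.86 (1.84 to 1.87) in Enshi black, 1.74 (1.72 to 1.75) in Chinese wild boar and 2.58 (2.55 to 2.60) in Large White, with Large White highest. These are ratios of counts, not of transcripts, since the genes differ in length. Their use is to set the libraries side by side.

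**Figure D3:**
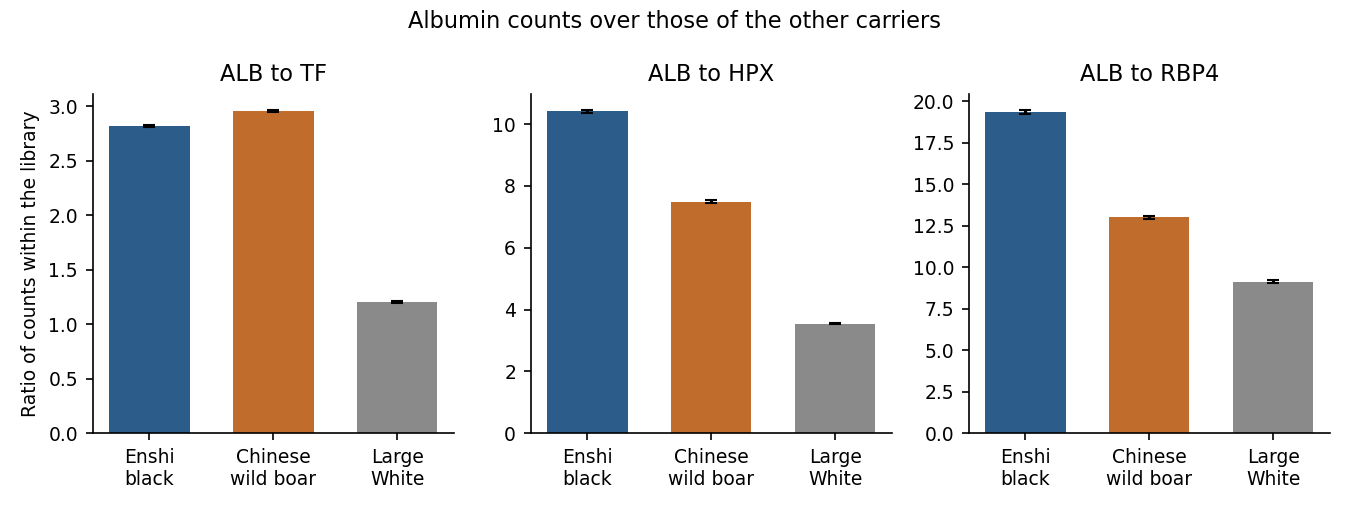
Counts of ALB divided by those of TF, HPX and RBP4 within the Enshi black, Chinese wild boar and Large White libraries (vertical axes starting at 0). Error bars are 95% exact conditional binomial intervals for counting error only. Large White has the lowest ratio in each panel, with ALB to TF at 2.82 in Enshi black, 2.96 in Chinese wild boar and 1.20 in Large White.

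The carriers were also set among other abundant genes. There were 97 gene IDs with a mean of at least 1000 CPM, a limit chosen after the values were seen. In Enshi black against Large White, 8 of the 97 (8.25%) passed as higher and 13 (13.4%) as lower, where 5.84% and 7.39% of all expressed gene IDs did. Of the 97, 4 had a fold at least as high as that of ALB, ALB included. In Chinese wild boar against Large White, 7 (7.22%) passed as higher and 6 (6.19%) as lower, where 2.96% and 3.73% of all expressed gene IDs did. All 7 that passed as higher had a fold at least as high as that of ALB, itself among them. HPX lay near the other end of the spread. In Chinese wild boar against Large White, 96 of the 97 had a fold farther from 1 than HPX, and in Enshi black against Large White 90 did.

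**Figure D4:**
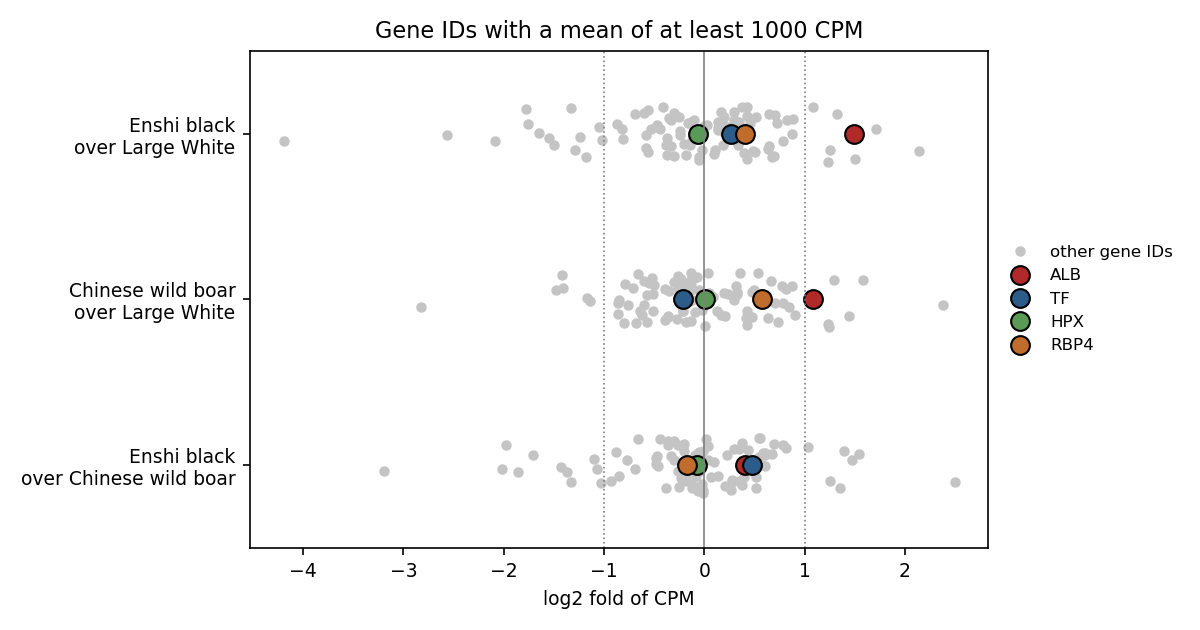
log2 fold of CPM (horizontal axis) for the 97 gene IDs with a mean of at least 1000 CPM, with 1 row per comparison and a small vertical scatter for sight only. Coloured points are ALB, TF, HPX and RBP4, the solid line marks a log2 fold of 0 and the dotted lines -1 and 1. ALB lies at 1.49 and 1.09 in the comparisons with Large White, and HPX at -0.07 and 0.00.

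The genes whose pattern over the 3 libraries was nearest to each carrier were found among 1993 other genes with a symbol and a mean of at least 50 CPM. The measure was the Euclidean distance between log2 CPM values centred on each gene's mean. Nearest to ALB was SMPD3, a neutral sphingomyelinase, at a distance of 0.03, with 74.2 CPM in Enshi black, 54.9 in Chinese wild boar and 25.7 in Large White. PRDX4, a peroxiredoxin of the endoplasmic reticulum, had 176 CPM in Enshi black, 124 in Chinese wild boar and 58.2 in Large White, and SC5D, an enzyme of cholesterol synthesis, 174 CPM in Enshi black, 140 in Chinese wild boar and 60.7 in Large White, both at 0.09. Nearest to TF were ZNF207, a spindle assembly factor, the ubiquitin ligase WWP1 and the junction scaffold MAGI1, at 0.02 to 0.03. Nearest to HPX were HGFAC, the activator of hepatocyte growth factor, COG1, a Golgi complex subunit, and the lectin COLEC11, at 0.01 to 0.03. Nearest to RBP4 were TAX1BP1, an autophagy receptor, the mitochondrial protease AFG3L2 and the matrix protein THBS2, at 0.02 to 0.03. Each match rests on 3 values.

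Counts of list genes that passed are to be read beside the shares of all expressed gene IDs that passed. These were 5.84% as higher and 7.39% as lower in Enshi black against Large White. Chinese wild boar against Large White had 2.96% and 3.73%, and Enshi black against Chinese wild boar 4.88% and 6.43%. Many lists are small, and none was tested against these shares. Of the albumin family 3 other genes were listed, all expressed, with list medians of 0.19 and 0.52 on the log2 scale in Enshi black and Chinese wild boar against Large White and 0.10 in Enshi black against Chinese wild boar. AFP, alpha-fetoprotein, is the main plasma protein of the fetal liver and lies next to ALB in the RefSeq order of genes. It had 15 counts (0.726 CPM) in Enshi black, 95 (4.70 CPM) in Chinese wild boar and 15 (0.751 CPM) in Large White. It passed in Chinese wild boar against Large White, 6.26-fold higher (3.61 to 11.6), and in Enshi black against Chinese wild boar, 6.47-fold lower (3.73 to 12). AFP was thus low throughout and highest in a library other than that with the most ALB. Afamin (AFM), a carrier of vitamin E, and GC, the vitamin D binding protein, passed in no comparison. AFM had 339 CPM in Enshi black, 316 in Chinese wild boar and 221 in Large White. GC had 2993 CPM in Enshi black, 2789 in Chinese wild boar and 2628 in Large White. Both had the order of ALB over the libraries, with smaller folds. In Enshi black over Chinese wild boar both had a fold of 1.07, where the median log2 fold over all expressed gene IDs was 0.10. With TMM factors the list median in that comparison was 0.005, so the order of these libraries for AFM and GC depends on the scaling.

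Of 8 other plasma carriers with a matched and expressed ID, AFM and GC among them, none passed in any comparison. The list's median log2 fold was 0.18 in Enshi black against Large White, -0.09 in Chinese wild boar against Large White and 0.17 in Enshi black against Chinese wild boar. Over all expressed gene IDs the median was 0.10 in both comparisons of Enshi black and 0.00 in Chinese wild boar against Large White. Transthyretin (TTR), which carries thyroxine and binds RBP4, had 2657 CPM in Enshi black, 3423 in Chinese wild boar and 4016 in Large White. Its order was thus the reverse of that of ALB, and Large White, lowest for RBP4, was highest for TTR. AMBP, the precursor of alpha-1-microglobulin, had 5516 CPM in Enshi black, 5029 in Chinese wild boar and 7174 in Large White, and the copper carrier ceruloplasmin (CP) 2675 in Enshi black, 1656 in Chinese wild boar and 2382 in Large White. Haptoglobin, the haemoglobin carrier, was among 5 listed symbols with no matched ID and is not analysed here.

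TF works with genes of iron uptake, storage and sensing, of which 11 were expressed. In Enshi black against Large White 3 passed as higher and 1 as lower, where 5.84% and 7.39% of all expressed gene IDs did. The list median was 0.32. TFRC, the receptor that takes up iron-loaded transferrin, had 141 CPM in Enshi black, 53.4 in Chinese wild boar and 64.6 in Large White. It was 2.18-fold higher (2.04 to 2.33) in Enshi black than in the Large White liver and 2.64-fold higher (2.46 to 2.83) than in Chinese wild boar. The first of these did not pass with TMM factors (2.05, 1.92 to 2.19) or DESeq2 size factors (2.04, 1.91 to 2.18). TFRC thus had its highest value in the library highest for TF.

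BMP6, which induces hepcidin, had 157 CPM in Enshi black, 37.0 in Chinese wild boar and 21.6 in Large White. It was 7.27-fold (6.58 to 8.06) and 4.25-fold (3.92 to 4.61) higher in Enshi black than in the Large White and Chinese wild boar livers. ACO1, the iron-responsive aconitase, had 321 CPM in Enshi black, 176 in Chinese wild boar and 142 in Large White and was 2.27-fold higher (2.17 to 2.37) in Enshi black than in the Large White liver. IREB2, the other iron regulatory protein, had 0 counts in Enshi black, which allows up to 0.145 CPM, against 1.39 CPM in Chinese wild boar and 1.05 CPM in Large White. It passed as lower in Enshi black in both comparisons.

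In Chinese wild boar against Large White, none of the 11 iron genes passed as higher and 1 as lower, with a median of -0.05. This was the iron exporter ferroportin (SLC40A1), with 15.2 CPM in Enshi black, 2.18 in Chinese wild boar and 7.81 in Large White. It was 3.59-fold lower (2.55 to 5.13) in Chinese wild boar than in Large White. In Enshi black against Chinese wild boar, TFRC, BMP6 and SLC40A1 passed as higher, the last at 6.96-fold (5.07 to 9.78), and IREB2 as lower, with a median of 0.52. The other members passed nowhere, among them the ferritin light chain FTL at 5093 CPM in Enshi black, 3562 in Chinese wild boar and 3261 in Large White and the iron sensor TFR2 at 844 CPM in Enshi black, 815 in Chinese wild boar and 1231 in Large White. Hepcidin (HAMP) was among 6 listed symbols with no matched ID.

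Of 12 expressed genes of haem and haemoglobin handling, the setting in which HPX acts, 1 passed as higher in Enshi black against Large White (median 0.07), 1 as higher in Chinese wild boar against Large White (0.13) and none in Enshi black against Chinese wild boar (-0.20). No member passed as lower in any of the 3. Among all expressed gene IDs, 5.84% passed as higher in Enshi black and 2.96% in Chinese wild boar against Large White. ALAS1, the first enzyme of haem synthesis in liver, had 1022 CPM in Enshi black, 537 in Chinese wild boar and 484 in Large White. It was 2.11-fold higher (2.06 to 2.16) in Enshi black than in the Large White liver and did not pass with TMM factors (1.98, 1.94 to 2.03). BLVRA, a biliverdin reductase, had 57.7 CPM in Enshi black, 106 in Chinese wild boar and 43.8 in Large White and was 2.42-fold higher (2.24 to 2.63) in Chinese wild boar than in Large White. UROS, an enzyme of haem synthesis, had 24.9 CPM in Enshi black, 53.9 in Chinese wild boar and 49.7 in Large White. It did not pass with the library total but passed as lower in Enshi black than in Chinese wild boar with TMM factors, at 0.432 (0.388 to 0.480). LRP1, the receptor of haem-loaded hemopexin, had no matched ID.

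RBP4 acts with genes of retinoid transport and metabolism, of which 17 were expressed. In Enshi black against Large White 4 passed as higher and 2 as lower (median 0.33), in Chinese wild boar against Large White 2 as higher and 1 as lower (0.03), and in Enshi black against Chinese wild boar 1 in each direction (0.11). CYP26A1 and CYP26B1, enzymes that degrade retinoic acid, went in opposite directions. CYP26A1 had 1.07 CPM in Enshi black, 2.23 in Chinese wild boar and 12.5 in Large White, and was 11.7-fold (7.56 to 19.0) and 5.60-fold (4.06 to 7.87) lower in Enshi black and Chinese wild boar than in Large White. CYP26B1 had 4.79 CPM in Enshi black, 4.25 in Chinese wild boar and 0.3 in Large White, the last from 6 counts, and was 16.0-fold (7.08 to 44.5) and 14.2-fold (6.25 to 39.7) higher in the same comparisons.

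RETSAT, a retinol saturase, had 116 CPM in Enshi black, 172 in Chinese wild boar and 46.1 in Large White. It was 2.52-fold (2.33 to 2.72) higher in Enshi black and 3.74-fold (3.47 to 4.02) higher in Chinese wild boar than in Large White. Its order over the libraries was that of RBP4. LRAT, which makes retinyl esters for storage and in liver marks stellate cells, had 9.20 CPM in Enshi black, 5.49 in Chinese wild boar and 2.20 in Large White. It was 4.18-fold higher (3.0 to 5.94) in Enshi black than in the Large White liver, where the ratio of Chinese wild boar was 2.49 (1.74 to 3.62) and did not pass.

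ALDH1A2, which makes retinoic acid, had 5.28 CPM in Enshi black, 1.29 in Chinese wild boar and 1.35 in Large White. It was 3.91-fold (2.54 to 6.19) and 4.10-fold (2.66 to 6.56) higher in Enshi black than in the Large White and Chinese wild boar livers. CRABP1, a retinoic acid binding protein of the cytosol, had 0.290 CPM in Enshi black, 2.52 in Chinese wild boar and 3.6 in Large White, the first from 6 counts. It was 12.4-fold (5.43 to 34.9) and 8.68-fold (3.73 to 24.8) lower in the same comparisons. STRA6, the RBP4 receptor of other tissues, had no count in any library.

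**Figure D5:**
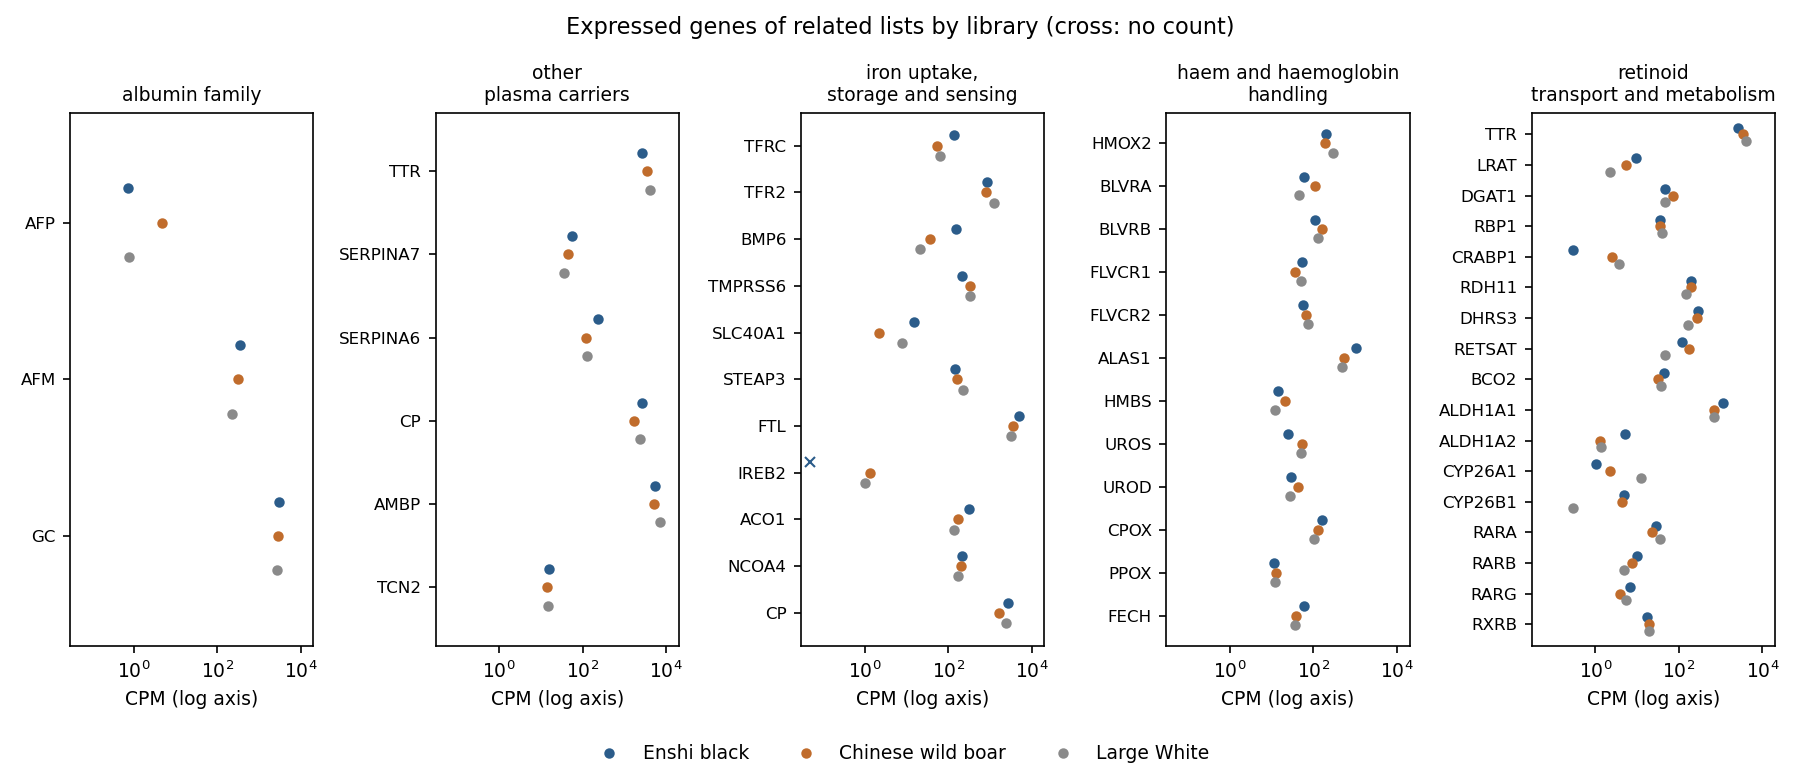
CPM (log axis) of the expressed genes of 5 lists related to the carriers, with points for Enshi black, Chinese wild boar and Large White from top to bottom in each row. A cross marks a library with no count and has no position on the scale; AFM and GC are drawn with the albumin family only. TFRC and BMP6 are highest in Enshi black, SLC40A1 is lowest in Chinese wild boar at 2.18 CPM, and CYP26A1 and CYP26B1 lie on opposite sides in Large White.

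Of 3 expressed receptors and adaptors of albumin and other carriers, the adaptor DAB2 passed, with 27.6 CPM in Enshi black, 10.9 in Chinese wild boar and 32.9 in Large White. It was 3.01-fold lower (2.58 to 3.52) in Chinese wild boar than in Large White and 2.52-fold higher (2.16 to 2.96) in Enshi black than in Chinese wild boar. FCGRT, the receptor that recycles albumin, passed nowhere and had 542 CPM in Enshi black, 484 in Chinese wild boar and 343 in Large White, the order of ALB. The list medians were 0.66 and 0.49 in Enshi black and Chinese wild boar against Large White and 0.16 in Enshi black against Chinese wild boar.

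Of 13 expressed liver transcription factors, 1 passed as higher and 1 as lower in Enshi black against Large White (median 0.04), none in Chinese wild boar against Large White (-0.11) and 1 as lower in Enshi black against Chinese wild boar (0.04). Among all expressed gene IDs, 5.84% passed as higher and 7.39% as lower in the first of these, and 6.43% as lower in the last. CEBPA, a known activator of the albumin gene, had 132 CPM in Enshi black, 89.9 in Chinese wild boar and 94.8 in Large White. HNF4A, a nuclear receptor of hepatocytes, had 779 CPM in Enshi black, 707 in Chinese wild boar and 575 in Large White, the order of ALB. Neither of them passed. HLF was 2.67-fold higher (2.03 to 3.53) and NFIL3 2.53-fold lower (2.27 to 2.81) in Enshi black than in the Large White liver, both bZIP factors. HLF did not pass with TMM factors (2.51, 1.91 to 3.31).

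Of 6 expressed acute phase proteins, 1 passed as higher and 3 as lower in Enshi black against Large White (median -0.78), 1 as lower in Chinese wild boar against Large White (-0.26), and 1 as higher and 2 as lower in Enshi black against Chinese wild boar (-0.39). C-reactive protein (CRP) had 435 CPM in Enshi black, 1171 in Chinese wild boar and 2574 in Large White, the reverse order of ALB. It was 5.91-fold (5.78 to 6.05) and 2.20-fold (2.16 to 2.23) lower in Enshi black and Chinese wild boar than in Large White. ITIH4, a major acute phase protein of pigs, had 2146 CPM in Enshi black, 3461 in Chinese wild boar and 6293 in Large White and was 2.93-fold lower (2.90 to 2.96) in Enshi black than in the Large White liver. The fibrinogen chain FGB had 632 CPM in Enshi black, 2296 in Chinese wild boar and 2680 in Large White and was 4.24-fold lower (4.16 to 4.32) in Enshi black than in the Large White liver. Other members went otherwise. FGG, another fibrinogen chain, had 1228 CPM in Enshi black, 1302 in Chinese wild boar and 971 in Large White. Its ratio in Enshi black over Large White was 1.26 (1.24 to 1.29), and it passed nowhere. LCN2 was 6.04-fold higher (4.34 to 8.57) in Enshi black than in the Large White liver, at 12.7 CPM in Enshi black, 3.31 in Chinese wild boar and 2.1 in Large White, while LBP had 554 CPM in Enshi black, 455 in Chinese wild boar and 557 in Large White and passed nowhere. HPX, described as rising in inflammation, was flat where CRP varied by several fold. Any part of an acute phase response in the ALB values was not tested.

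These are bulk livers, in which fewer cells of a type and less RNA per cell cannot be told apart. Summed over 12 matched hepatocyte markers other than the carriers, the libraries held 25013 CPM in Enshi black, 25926 in Chinese wild boar and 21088 in Large White. APOA1, 1 of the 12, had 0 to 2 counts per library, and 11 were expressed. Of these 11, APOB passed as higher and FGB as lower in Enshi black against Large White, none passed in Chinese wild boar against Large White, and in Enshi black against Chinese wild boar APOB and CYP2E1 passed as higher and TAT and FGB as lower. The list medians were -0.33 in Enshi black against Large White, -0.01 in Chinese wild boar against Large White and -0.26 in Enshi black against Chinese wild boar. AHSG, the secreted plasma protein fetuin-A, made up much of the sum, with 14361 CPM in Enshi black, 14819 in Chinese wild boar and 8898 in Large White. The other 11 markers summed to 10652 CPM in Enshi black, 11107 in Chinese wild boar and 12190 in Large White, so Large White was lowest with AHSG and highest without it.

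Markers of other cells were lower in sum, and in several lists 1 gene set the order of the sum. The sums without the most abundant gene of a list were added after the values were seen. Over 9 matched stellate cell and fibroblast markers the sums were 1145 CPM in Enshi black, 597 in Chinese wild boar and 355 in Large White, the order of ALB. Without the collagen gene COL3A1 the sums were 270 CPM in Enshi black, 222 in Chinese wild boar and 127 in Large White, in the same order. In Enshi black against Large White 4 of 8 expressed genes passed as higher, where 5.84% of all expressed gene IDs did. These were COL1A2, COL3A1, DCN and LOX, while HGF (2.04), ACTA2 (1.46), PDGFRB (0.945) and DES (0.722) did not pass. DES had 14.8 CPM in Enshi black, 37.0 in Chinese wild boar and 20.5 in Large White. It passed as lower in Enshi black against Chinese wild boar.

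Over 8 Kupffer cell and macrophage markers the sums were 932 CPM in Enshi black, 850 in Chinese wild boar and 1036 in Large White. MARCO, CSF1R, LYZ and CLEC4F passed as lower in Enshi black against Large White, and the list median was -1.11. TIMD4 (0.503), CD68 (0.941), C1QA (1.12) and MRC1 (1.61) did not pass in that comparison. MRC1 had 198 CPM in Enshi black, 60.6 in Chinese wild boar and 123 in Large White. It passed as higher in Enshi black against Chinese wild boar at 3.28-fold (3.07 to 3.49), where CSF1R and CLEC4F passed as lower. Without the complement gene C1QA, the sums were 359 CPM in Enshi black, 345 in Chinese wild boar and 525 in Large White. Over 4 sinusoidal endothelial markers they were 523 CPM in Enshi black, 378 in Chinese wild boar and 724 in Large White. The scavenger receptor STAB1 set that order, with 194 CPM in Enshi black, 165 in Chinese wild boar and 488 in Large White, and passed as lower in Enshi black and in Chinese wild boar against Large White. LYVE1, PECAM1 and KDR had folds of 1.27, 1.24 and 1.56 in Enshi black over Large White, none of which passed, and summed to 329 CPM in Enshi black, 213 in Chinese wild boar and 235 in Large White.

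Sums of the remaining lists were smaller. Over 5 erythroid markers they came to 50.01 CPM in Enshi black, 185 in Chinese wild boar and 106 in Large White. The beta-globin gene HBB made up most of this, at 38.2 CPM in Enshi black, 178 in Chinese wild boar and 100.1 in Large White, and passed as lower in Enshi black in both comparisons. ALAS2, the erythroid enzyme of haem synthesis, went the other way, with 8.09 CPM in Enshi black, 3.36 in Chinese wild boar and 2.85 in Large White, and was 2.83-fold higher (2.09 to 3.90) in Enshi black than in the Large White liver. It did not pass with TMM factors (2.66, 1.96 to 3.66).

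Those of 5 T and NK cell markers were 119 CPM in Enshi black, 50.6 in Chinese wild boar and 112 in Large White. CD3D and CD8A passed as lower in Chinese wild boar against Large White, at 3.14-fold (2.17 to 4.63) and 7.45-fold (5.72 to 9.82). With CD2, they passed as higher in Enshi black against Chinese wild boar, where the list median was 1.61. No T and NK cell marker passed in Enshi black against Large White. Neutrophil markers, 2 genes, summed to 6.58 CPM in Enshi black, 5.14 in Chinese wild boar and 33.7 in Large White, nearly all from CSF3R. Cholangiocyte markers, 5 genes, reached 30.5 CPM in Enshi black, 16.8 in Chinese wild boar and 25.7 in Large White, and without SPP1 7.79 in Enshi black, 7.96 in Chinese wild boar and 7.36 in Large White. B and plasma cell markers, 4 genes, gave 13.4 CPM in Enshi black, 14.9 in Chinese wild boar and 10.9 in Large White. Here POU2AF1 passed as lower in Enshi black in both comparisons, while CD79B and MS4A1 passed as higher. CD79B had 5.57 CPM in Enshi black, 0.841 in Chinese wild boar and 0.951 in Large White. The part of cell makeup in the carriers' values was not tested.

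TF needs a limit of its own. RefSeq lists 2 neighbouring genes under the symbol TF, 1 with the synonym PICA, the inhibitor of carbonic anhydrase, which is a relative of transferrin. The gene names used here give the symbol to 1 Ensembl ID. Reads shared by the pair could have been dropped or placed on either, so the TF values are uncertain to that extent.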

How the data were processed

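Each of the 3 deposited tables holds raw read counts (whole numbers) for every Ensembl gene ID. Tools named in the submitters' processing notes are edgeR 3.16.3, HTSeq 0.6.1 and TopHat2 2.1.0, with the build Sscrofa10.2. Which did what, with which annotation release and strand setting, is not given in the sources used here. Rows that name no gene (5) stayed out. Reads of no feature made up 19.0%, 18.9% and 22.0% and ambiguous reads 1.89%, 2.49% and 2.18% in Enshi black, Chinese wild boar and Large White. They cannot be assigned to any gene. Other rows that name no gene entered neither these shares nor any total used here, so reads in those rows are not covered.

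Symbols matched 11804 of 25322 IDs. CPM uses the library total. Gene IDs that reached 1 CPM in any library (13228) entered the counts of genes past the size rule. Folds have exact conditional binomial intervals, and list medians use log2 folds with a prior count of 2. The rule was checked on counts drawn at random with known folds, without variation between animals. The changed genes in that check had folds farther from 1 than those of ALB, so it does not bear on the ALB calls. Tools were Python 3.11.15, numpy 2.4.6, pandas 2.3.3, scipy 1.17.1, matplotlib 3.10.9, R 4.3.3, edgeR 4.0.16 and DESeq2 1.42.0. The alternatives were other scalings, filters of 10 CPM or none, list means, and assumed variation between animals.

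The members and the 17 gene lists were chosen with earlier results of these data known. Named genes are the carriers, list genes that passed by distance of the bound from 1 (up to 4 per direction, or 2 abundant ones where none passed), neighbours by rank, and the 3 nearest patterns per carrier. Others named for their role in carrier biology (TTR, AMBP, CP, FTL, TFR2, UROS, STRA6, FCGRT, CEBPA, HNF4A, LBP, FGG, AFM, GC) or for their part in a marker list or sum (AHSG, C1QA, CD68, TIMD4, LYVE1, PECAM1, PDGFRB, ACTA2, HGF, SPP1) were chosen after their values were seen. Gene lists hold no carrier, and some genes are in more than 1 list.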

Additional observations from a re-analysis of the deposited data

How the results depend on the processing

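When a coefficient of variation of 0.2 or 0.4 was assumed between animals, ALB no longer passed the size rule in Enshi black against Large White (2.81-fold) or Chinese wild boar against Large White (2.12-fold), since the interval widens by construction. The other calls on the 4 carriers were kept under 4 other scalings. Under the assumed variation they could not change, since none of them had passed and the interval only widens. The 1 reversal of direction was HPX in Chinese wild boar against Large White, at 0.972 with the total without the 10 most abundant gene IDs (1.003 with the library total), and its cause was not tested. A filter of 10 CPM leaves fewer genes, and counts past the size rule then fell to 449 higher and 536 lower for Enshi black against Large White, 274 lower in Chinese wild boar against Large White, and 341 higher and 481 lower for Enshi black against Chinese wild boar. Against 772, 978, 494, 646 and 850 with the 1 CPM filter, each moved by over 1.5 times.

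Of the list genes, 6 changed their call under a scaling, and 6 of 51 list medians had a mean of the other sign. The means were -0.78 for the albumin family in Enshi black against Chinese wild boar and -0.06 for carrier receptors in Chinese wild boar against Large White. Liver transcription factors had means of -0.15 in Enshi black against Large White and -0.03 in Enshi black against Chinese wild boar. For hepatocyte markers in Chinese wild boar against Large White the median was -0.01 and the mean 0.09, and for endothelial markers in Enshi black against Large White 0.33 and -0.01.

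Shares depend on the total by construction. Without the 10 most abundant gene IDs in the total, Enshi black, Chinese wild boar and Large White had 8.95%, 6.64% and 3.23% for ALB, 3.18%, 2.24% and 2.68% for TF, 0.860%, 0.886% and 0.912% for HPX and 0.463%, 0.511% and 0.354% for RBP4. With reads of no feature and ambiguous reads added, they had 5.50%, 4.13% and 1.88% for ALB, 1.95%, 1.40% and 1.56% for TF, 0.528%, 0.551% and 0.530% for HPX and 0.284%, 0.318% and 0.206% for RBP4. No paired analysis was possible because each breed has 1 library. For the same reason no library could be left out. Depth did not limit the carriers, with at least 54205 counts each, but it limits list genes near the floor of 3 counts.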
